A study of Sus scrofa with 14 samples.

Results

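NEGR1, ERBB4 and EDIL3 are 3 long genes of the pig genome, out of 21280 genes with expression values and 13052 that could be placed on an autosome. They were chosen by measured values, namely large expression differences between GOM (greater omentum, a visceral fat depot) and ULB (upper layer of backfat, a subcutaneous depot), and negative compartment scores over their bodies. The expression difference between depots and the negative sign are therefore given as descriptions, with no test. The study named the same 3 genes among those in breed-specific TADs, so a breed difference of TADs over them is not independent of how they came to be named. In these data NEGR1 and EDIL3 were higher in ULB, ERBB4 was higher in GOM, and the compartment score over each body had a higher mean in the depot with more mRNA.

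NEGR1 encodes a GPI-anchored cell adhesion protein of the IgLON family, best known from neurons and from its place in a human locus of body mass. ERBB4 encodes a receptor tyrosine kinase of the EGF receptor family, which binds neuregulins, betacellulin and heparin-binding EGF. EDIL3 encodes a secreted matrix protein that binds integrins through an RGD motif and is known from developing vessels. In Hi-C maps, compartment A holds open, gene-rich chromatin and compartment B closed, gene-poor chromatin, and TADs (topologically associating domains) are stretches of chromosome whose inside contacts are frequent.

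GOM and ULB came from 2-year-old adult wild boars and Bama pigs. By the study's methods these were 4 females, 2 of each breed, all kept on 1 farm, the wild boars having been taken from the wild when young. RNA-seq and Hi-C each gave 7 libraries here: 2 of wild boar GOM, 2 of Bama pig GOM, 2 of wild boar ULB and 1 of Bama pig ULB, numbered 2, with no treatment or engineered allele in any group. Each library is 1 animal and depot, so with 2 animals a breed, breed cannot be told apart from these animals. Estimated counts summed to between 10833153 and 18627076 per RNA-seq library. Most depot markers followed the labels: WT1, GATA6 and TCF21, transcription factors of visceral fat, had a lowest GOM value of 19.88, 21.66 and 3.07 TPM against a highest ULB value of 0.25, 1.94 and 0.06 TPM, and the subcutaneous factors HOXC9 and EN1 reached at most 0.40 and 0.14 TPM in GOM against at least 3.49 and 3.16 TPM in ULB. Of the same lists, NR2F1 did not differ past the test (log2 fold change 0.09, SE 0.47), GATA4 reached at most 0.22 TPM and HOXC10 was at 0 in every library. Bama pig GOM 1 ranked its genes more like Bama pig ULB 2 (Spearman's rho across genes 0.931) than like Bama pig GOM 2 (0.92), although its depot markers were those of GOM. Wild boar ULB 1 held more skeletal muscle RNA, with a summed level of 4 muscle genes of 360.45 TPM against at most 9.53 TPM in the other libraries. These are bulk tissues, in which fewer cells of a type and less RNA per cell cannot be told apart.

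All coordinates are on Sscrofa11.1 with RefSeq gene models. NEGR1 (ENSSSCG00000025085) spans chr6:140780397-141652414 on the plus strand, 872.0 kb with 7 exons. ERBB4 (ENSSSCG00000016160) spans chr15:113966573-115096984 on the minus strand, 1130.4 kb with 29 exons in 1 transcript, whose model was corrected for an inserted base. EDIL3 (ENSSSCG00000026780) spans chr2:92122495-92554351 on the minus strand, 431.9 kb with 11 exons in the longest transcript. They ranked 67th, 33rd and 290th by length among the 13052 placed autosomal genes. Nearly all of each gene is intron: exons of the longest transcript cover 1.12% of NEGR1, 1.10% of ERBB4 and 1.45% of EDIL3, and the first intron is the longest in each, at 334.7 kb in NEGR1 and 117.9 kb in EDIL3. The bodies are AT-rich even for compartment B. GC content was 35.3% in NEGR1 against a mean of 40.4% in the B bins of chromosome 6, 34.4% in ERBB4 against 37.2% on chromosome 15, and 35.7% in EDIL3 against 38.0% on chromosome 2.

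The 250 bases before each annotated start are shown as sequence context. The mRNA values are per gene and do not show which start was used, and a 20-kb bin does not resolve 250 bases. Capitals mark CCAAT and GGGCGG, searched with TATAAA on both strands. The windows lie at chr6:140780147-140780396 (plus strand), chr15:115096985-115097234 (minus strand) and chr2:92554352-92554601 (minus strand), and are written in the direction of transcription.
NEGR1: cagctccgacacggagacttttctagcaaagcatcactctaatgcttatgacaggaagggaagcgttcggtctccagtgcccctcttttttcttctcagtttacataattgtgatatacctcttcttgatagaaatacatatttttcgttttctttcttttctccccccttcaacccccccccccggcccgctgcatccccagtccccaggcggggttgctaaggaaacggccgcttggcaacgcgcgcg
ERBB4: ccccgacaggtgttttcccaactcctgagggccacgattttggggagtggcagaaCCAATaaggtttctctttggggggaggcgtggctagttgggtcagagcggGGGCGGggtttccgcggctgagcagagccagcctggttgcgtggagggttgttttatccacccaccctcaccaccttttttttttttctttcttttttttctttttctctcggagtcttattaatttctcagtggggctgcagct
EDIL3: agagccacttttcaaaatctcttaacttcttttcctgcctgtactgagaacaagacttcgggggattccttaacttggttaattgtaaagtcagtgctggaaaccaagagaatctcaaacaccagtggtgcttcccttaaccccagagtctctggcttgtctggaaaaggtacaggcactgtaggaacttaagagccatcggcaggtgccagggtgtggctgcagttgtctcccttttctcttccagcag
The ERBB4 window held 1 CCAAT and 1 GGGCGG, which occur in 31.9% and 45.9% of the windows of 19556 protein-coding genes, and neither letter string was in the other 2 windows. TATAAA, found in 9.8% of all windows, was in none of the 3. The windows held 14 CpG in NEGR1, 9 in ERBB4 and 2 in EDIL3, against a median of 12, and 90.2% of all windows held at least as many as EDIL3. These are letter matches before an annotated start, not measured binding sites.

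NEGR1 mRNA was low in GOM and moderate in ULB. TPM (a level scaled for transcript length and library size) was 0.14 and 1.81 in the GOM libraries of wild boar 1 and 2, 0.98 and 3.09 in those of Bama pig 1 and 2, 19.96 and 11.99 in the ULB libraries of wild boar 1 and 2, and 13.16 in that of Bama pig 2. The depots did not overlap, with the highest GOM library well under the lowest ULB library. Means were 1.51 ± 1.26 TPM in GOM (SD, n = 4) and 15.04 ± 4.30 TPM in ULB (SD, n = 3), and the edgeR estimate over both breeds was a log2 fold change of −3.48 (SE 0.70), GOM minus ULB. The GOM libraries differed among themselves far more than the ULB libraries: the highest was 21.8 times the lowest in GOM and 1.66 times in ULB. The lowest value, in wild boar GOM 1, rested on 4.02 estimated counts, and the ratio of 141 between ULB and GOM of wild boar 1 has that precision, while the ratios of wild boar 2 and Bama pig 2 were 6.62 and 4.25.

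ERBB4 mRNA had the opposite pattern. In the same order, TPM was 3.46, 1.40, 4.43 and 3.52 in the GOM libraries and 0.38, 0.27 and 0.34 in the ULB libraries. Again the depots did not overlap, and wild boar GOM 2 was the lowest of the GOM libraries. Means were 3.20 ± 1.28 TPM in GOM (SD, n = 4) and 0.33 ± 0.06 TPM in ULB (SD, n = 3), for a log2 fold change of 3.06 (SE 0.47). Within a pig, GOM was 9.18, 5.25 and 10.3 times ULB in wild boar 1, wild boar 2 and Bama pig 2, taking libraries of the same breed and number as the same animal. The ULB libraries held between 10.72 and 15.79 estimated counts of ERBB4, so its level there is imprecise although the 3 values are close.

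EDIL3 mRNA was the scarcest of the 3 in GOM. TPM, again in that order, was 0.25, 0.12, 0.79 and 0.13 in the GOM libraries and 1.74, 2.34 and 1.35 in the ULB libraries. The depots did not overlap here either, but Bama pig GOM 1 lay much nearer to ULB than the other GOM libraries did. Means were 0.32 ± 0.32 TPM in GOM (SD, n = 4) and 1.81 ± 0.50 TPM in ULB (SD, n = 3), for a log2 fold change of −2.75 (SE 0.66). Without Bama pig GOM 1 the log2 fold change was −3.41. In GOM the level rested on 4.14 to 31.41 estimated counts per library.

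**Figure D1:**
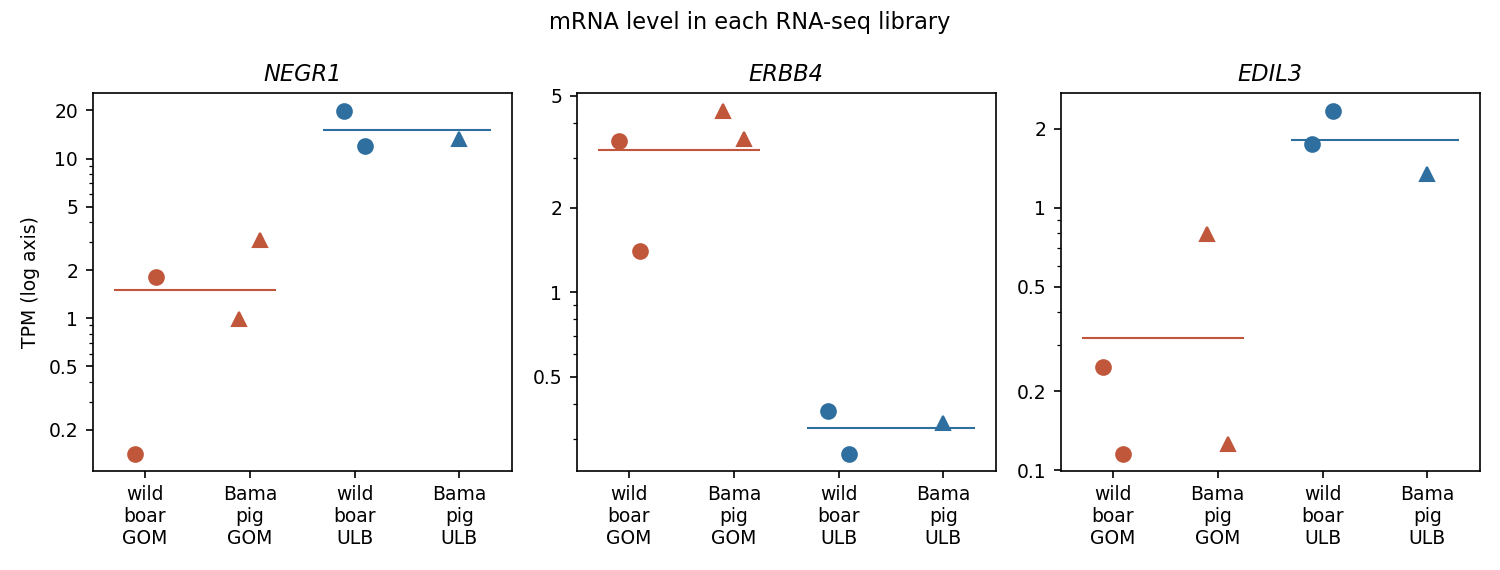
TPM on a log axis for each RNA-seq library, with circles for wild boar, triangles for Bama pig, red for GOM and blue for ULB. Lines are the arithmetic means of the 4 GOM and the 3 ULB libraries. NEGR1 and EDIL3 lie higher in every ULB library and ERBB4 in every GOM library, and the lowest point of NEGR1 is wild boar GOM 1 at 0.14 TPM.

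Over all 17877 genes tested between depots, 2.29% were called higher in GOM and 1.29% lower (edgeR quasi-likelihood test, adjusted p below 0.05 and absolute log2 fold change above 1). Every GOM library lay above every ULB library in TPM for 8.28% of genes and below for 2.68%. Since the 3 genes were selected on this contrast, nothing is read from their places in these shares. By the size of the estimate, 612 genes had an absolute log2 fold change at least that of NEGR1, 826 at least that of ERBB4 and 1009 at least that of EDIL3.

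The breeds were not separated for any of the 3. In GOM the log2 fold change of wild boar against Bama pig was −0.38 (SE 1.14) for NEGR1, −0.17 (SE 0.55) for ERBB4 and −0.69 (SE 0.97) for EDIL3, with adjusted p of 0.935, 0.942 and 0.838 in the edgeR quasi-likelihood test. In that comparison 0.0241% of 16615 genes were called. In ULB, where 1 library stands for Bama pig and is assumed to vary like the other groups, the estimates were 0.19 (SE 1.09), −0.16 (SE 0.77) and 0.47 (SE 0.97), with edgeR adjusted p of 0.940, 0.929 and 0.821, and 0.252% of 17877 genes were called. The standard errors are as large as 2-fold differences for NEGR1 and nearly so for EDIL3, so differences of that size were not detectable with these libraries. For EDIL3 in GOM, 1 library set the sign: without Bama pig GOM 1 the estimate was 1.08.

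Nor was a breed difference of the depot contrast detected. The interaction, positive where GOM against ULB is higher in wild boar, was −0.56 (SE 1.45) for NEGR1, 0.01 (SE 0.83) for ERBB4 and −1.15 (SE 1.30) for EDIL3 on the log2 scale, with edgeR adjusted p of 1.00, 1.00 and 0.989. This test called 0.0% of 17877 genes in edgeR, with 869 genes at an unadjusted p below 0.05, and DESeq2 called 52. With the animal as a block 581 genes were called and the EDIL3 estimate changed sign to 0.61. The blocked fit rests on a single Bama pig with both depots and on a pairing of libraries that is assumed, so little can be read from its calls. Taken 1 breed at a time, the depot estimate was −3.76 in wild boar and −3.13 in Bama pig for NEGR1, 3.02 and 3.06 for ERBB4, and −3.26 and −2.07 for EDIL3.

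Across the IgLON family and reported partners of NEGR1, 0 of 7 measured genes were called higher in GOM and 1 lower, with a median log2 fold change of 0.16 against 0.02 over all genes tested. The gene called was OPCML, an IgLON relative of NEGR1. Its TPM was 0.45, 1.26, 1.31 and 1.01 in the GOM libraries and 7.73, 5.61 and 2.23 in the ULB libraries. Like NEGR1 it was higher in every ULB library, with a log2 fold change of −2.19 (SE 0.48, edgeR adjusted p = 0.0341), but the call was kept in only 1 of 7 fits that left out a library. LSAMP, a further IgLON, lay the other way, at 3.74 to 10.19 TPM in GOM and 1.84 to 2.55 TPM in ULB, and did not pass (log2 fold change 1.81, SE 0.45, edgeR adjusted p = 0.058), although it was called in 3 of 14 alternatives, DESeq2 among them. NTM, the remaining IgLON measured, was 1.58 (SE 0.63, edgeR adjusted p = 0.203). Of the reported partners, NPC2, a lysosomal cholesterol carrier, ADAM10, a protease that sheds NEGR1, NCAM1, a neural adhesion molecule, and FGFR2, a growth factor receptor, had log2 fold changes of 0.16, 0.23, −0.88 and −1.52, none past the test.

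Among 22 measured ErbB receptors, ligands and regulators, 1 was called higher in GOM and 0 lower, with a median of 0.12. ERBB2, the co-receptor that pairs with ERBB4, was 15.85, 7.58, 13.55 and 15.63 TPM in the GOM libraries in the order above and 4.47, 6.38 and 4.41 TPM in the ULB libraries. Like ERBB4, it was higher in every GOM library and lowest among them in wild boar GOM 2 (log2 fold change 1.30, SE 0.29, edgeR adjusted p = 0.0345), and the call was kept in 3 of 7 fits without a library. EGFR and ERBB3 had log2 fold changes of 0.02 (SE 0.28) and 0.42 (SE 0.28). On TPM, which allows levels of different genes to be compared, ERBB4 was the least abundant of the 4 receptors in every library, and ERBB3, at 97.16 to 188.28 TPM, the most abundant.

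Of the ligands of ERBB4, NRG4 was not matched and has no value here. NRG2 and NRG3, neuregulins that bind ERBB4, and EREG stayed below 1 TPM in every library, as did TGFA and AREG, ligands of EGFR, and NRG1 passed 1 TPM in a single library, Bama pig GOM 1, at 1.31 TPM. BTC (betacellulin) and HBEGF were above 1 TPM in every library. The TPM of BTC was 13.38, 17.40, 136.53 and 203.33 in the GOM libraries and 4.48, 12.36 and 24.06 in the ULB libraries. Within each breed every GOM library exceeded every ULB library, and both Bama pig GOM libraries stood above all others, but neither the depot difference (log2 fold change 1.63, SE 0.42, edgeR adjusted p = 0.0615) nor the breed difference in GOM (−2.87, edgeR adjusted p = 0.276) passed. The depot difference passed with the animal as a block (1.75, edgeR adjusted p = 0.0129) and with DESeq2, and over all alternatives its adjusted p ran from 0.00283 to 0.299. Some transcripts typical of liver were also highest there. The summed level of 6 liver markers was 519.88 and 1386.98 TPM in Bama pig GOM 1 and 2 and 186.18 to 259.66 TPM elsewhere. ALB (albumin), TTR, FGB and APOB were highest in these 2 libraries, and APOB was called between breeds in GOM (log2 fold change −5.34, edgeR adjusted p = 0.0455), while APOA1 was 146.24 to 226.60 TPM in all libraries and TF did not follow this order. Their part in the BTC level was not tested. HBEGF was 2.30 to 3.60 TPM in GOM and 3.28 to 7.12 TPM in ULB and was not called.

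Of EDIL3's relative MFGE8 and 9 integrin subunits, 1 of 10 was called higher in GOM and 0 lower, with a median of 0.15. The call was ITGB2, the leukocyte integrin beta chain, at 18.45 to 34.20 TPM in GOM and 6.51 to 8.60 TPM in ULB (log2 fold change 1.71, SE 0.25, edgeR adjusted p = 0.00502), kept in 7 of 7 fits without a library. ITGAL, its alpha partner in leukocytes, was 1.18 (SE 0.37, edgeR adjusted p = 0.117). MFGE8, which shares EDIL3's domain types, and ITGAV, ITGB3 and ITGB5, the chains of its main receptors, had log2 fold changes of −0.14, −0.15, 0.13 and 0.17 with SE of 0.24 to 0.30. In the breed comparison in GOM, 0 of the 39 measured genes of the 3 lists were called by edgeR, with 5 at an unadjusted p below 0.05.

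**Figure D2:**
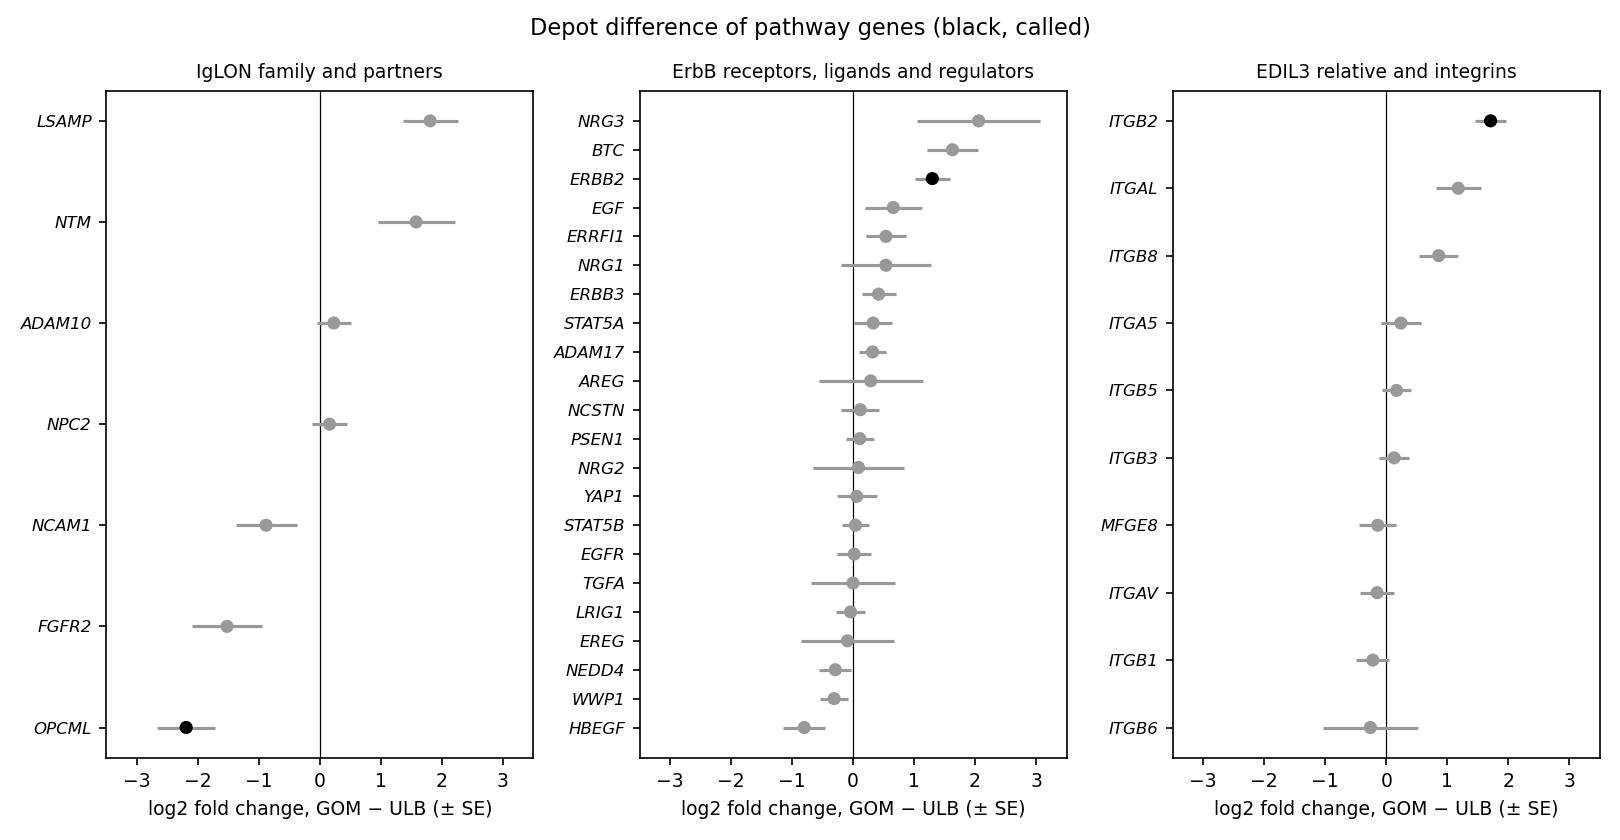
Log2 fold change of GOM minus ULB (points, with bars of 1 SE) from the edgeR fit for the 39 measured genes of the 3 lists, black where called. The calls are OPCML at −2.19, ERBB2 at 1.30 and ITGB2 at 1.71.

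Other cell types differed between the depots alongside the 3 genes. Of 5 measured mesothelial markers, WT1, KRT8 and BNC1 were called higher in GOM and the list summed to between 119.16 and 466.43 TPM in GOM and 3.47 and 20.42 TPM in ULB. Wild boar GOM 2 was lowest among the GOM libraries both in ERBB4 and in this sum, but the other GOM libraries did not keep a common order. Bama pig GOM 1 had the highest ERBB4, at 4.43 TPM, with a sum of 193.66 TPM. Wild boar GOM 1 had the highest sum, at 466.43 TPM, with ERBB4 at 3.46 TPM. KRT8 held much of this sum, at 363.44 TPM in that library. Single markers differed in their order. BNC1 had 13.84, 5.98, 15.82 and 14.84 TPM in the GOM libraries, listed as for ERBB4, and ranked them as ERBB4 did. WT1, at 72.90, 19.88, 83.74 and 46.07 TPM, shared only its highest and lowest GOM library with ERBB4. KRT8, KRT18 and CALB2 did not keep the order of ERBB4. In ULB, BNC1 was at 0 in both wild boar libraries and at 0.17 TPM in Bama pig ULB 2, and WT1 reached at most 0.25 TPM. Other markers of the list were present there, KRT8 at 2.54 to 10.61 TPM, KRT18 at 0.35 to 6.46 TPM and CALB2 at up to 3.35 TPM. ERBB4 was between 0.27 and 0.38 TPM in these libraries. By edgeR 0 of 9 adipocyte, 5 endothelial, 5 macrophage, 4 skeletal muscle and 6 smooth muscle markers were called between depots, with 1, 0, 2, 3 and 0 at an unadjusted p below 0.05 and 1, 0, 2, 2 and 0 called by DESeq2. With the animal as a block, C1QA, a macrophage marker, was called (1.59, edgeR adjusted p = 0.0123). LEP of the adipocyte list had means of 81.87 TPM in GOM and 185.87 TPM in ULB (log2 fold change −1.36, SE 0.33, edgeR adjusted p = 0.054). It was called by DESeq2 and in some edgeR alternatives, such as upper quartile normalization or no TPM filter. The other adipocyte markers were called in no alternative. Of 7 progenitor and fibroblast markers, DPT and PI16 were called higher in GOM, PI16 in only 3 of 7 fits without a library. COL1A1 of the same list lay the other way, with means of 95.96 TPM in GOM and 393.28 TPM in ULB, and was not called in the main edgeR fit. It was called by DESeq2 and in some edgeR alternatives, such as without the TPM filter or without wild boar GOM 1. The part of these cell types in the levels of the 3 genes was not tested. Without wild boar ULB 1, the library with muscle RNA, the depot estimates were −3.16 for NEGR1, 3.23 for ERBB4 and −2.73 for EDIL3.

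The genes whose levels followed each of the 3 most closely were ranked by Pearson's r of log2(TPM + 0.5) over the 7 RNA-seq libraries, which largely orders genes by depot. Because the pick used these libraries, a library order shared with NEGR1, ERBB4 or EDIL3 follows largely from the ranking. For NEGR1, among 11516 genes, the closest were ITGBL1 (0.989), GPC3 (0.969), FAP (0.955), MME (0.952) and EIF5A2 (0.952). ITGBL1, an integrin beta-like secreted protein, had 4.01, 23.93, 8.58 and 25.13 TPM in the GOM libraries, in the order of NEGR1, and 102.85 to 163.08 TPM in ULB. FAP and MME are surface proteases of stromal cells and GPC3 is a heparan sulfate proteoglycan. For ERBB4 they were MEIS1 (0.995), BARX1 (0.994), GCNT1 (0.991), TSPOAP1 (0.989) and SEMA5A (0.988). MEIS1 and BARX1 are homeobox transcription factors, and BARX1 had 1.79 to 8.28 TPM in GOM and at most 0.08 TPM in ULB. All 5 were lowest among the GOM libraries in wild boar GOM 2, as ERBB4 was. For EDIL3, among 11517 genes, they were NT5DC3 (0.996), FMO2 (0.995), CHAD (0.993), NEDD9 (0.984) and CRACD (0.982). FMO2, a flavin monooxygenase, had 33.16 TPM in Bama pig GOM 1 and 10.59 to 16.17 TPM in the other GOM libraries, against 58.46 to 106.66 TPM in ULB. CHAD, a cartilage matrix protein, had the same intermediate value in Bama pig GOM 1, at 1.14 TPM against 0.13 to 0.23 TPM in the other GOM libraries. NEGR1 and EDIL3 had an r of 0.76 with each other, and ERBB4 had −0.88 with NEGR1 and −0.76 with EDIL3. These values follow largely from the choice of the 3 genes by their depot difference, and are given as descriptions.

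All 3 genes lie in gene-poor surroundings, and the expressed genes around them were not called between the depots. The nearest placed gene was ZRANB2 for NEGR1, at 274.8 kb, IKZF2 for ERBB4, at 415.2 kb, and HAPLN1 for EDIL3, at 187.0 kb. Within 1 Mb of the ends, 5 genes around NEGR1, 6 around ERBB4 and 1 around EDIL3 had a mean of at least 1 TPM, and 0 of these 12 were called in the depot fit with edgeR, with 3 at an unadjusted p below 0.05 and 1, SRSF11, called by DESeq2. Beside NEGR1, PTGER3, a prostaglandin E receptor, had a log2 fold change of 0.40 (SE 0.46) and SRSF11, a splicing factor, −0.97 (SE 0.31, edgeR adjusted p = 0.118). Beside ERBB4, IKZF2, a zinc finger transcription factor of lymphocytes, had 0.98 (SE 0.38, edgeR adjusted p = 0.188), and CPS1, the urea cycle enzyme, had 3.48 and 12.21 TPM in Bama pig GOM 1 and 2 and at most 0.90 TPM elsewhere, the same 2 libraries as for the liver markers above. Beside EDIL3, VCAN, a large matrix proteoglycan, had −0.02 (SE 0.29).

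In Hi-C, PC1 is the first principal component of the contact map of a chromosome, positive in compartment A and negative in B, here per 20-kb bin. Every bin over the 3 bodies was negative in every library (44 of 44 in NEGR1, 57 of 57 in ERBB4 and 22 of 22 in EDIL3), which the rule had used. The depot difference of PC1 is a readout that the rule did not use. Over NEGR1 the body mean was −51.07, −41.29, −42.91 and −43.23 in the GOM libraries, listed as for TPM, and −37.39, −37.37 and −37.90 in the ULB libraries. All GOM libraries lay below all ULB libraries, by 7.08 between the means (exact permutation test, two-sided, p = 0.0571, adjusted over the 3 genes 0.0857).

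Over EDIL3 the body mean was −50.91, −39.99, −42.22 and −42.33 in the GOM libraries in the same order, and −35.32, −35.86 and −36.79 in the ULB libraries. GOM again lay below ULB in every library, with a difference of −7.87 between the means (exact permutation test, two-sided, p = 0.0571, adjusted 0.0857). With 4 against 3 libraries 0.0571 is the smallest p this test can give, so it cannot pass 0.05. Every GOM library lay below every ULB library for 6.57% of the 13052 gene bodies, and above for 11.0%.

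Over ERBB4 the body mean was −34.98, −26.71, −24.16 and −22.90 in the GOM libraries and −36.78, −37.11 and −32.94 in the ULB libraries. Here GOM was the less negative depot, by 8.42 between the means (exact permutation test, two-sided, p = 0.114, adjusted 0.114), and the groups overlapped only in that wild boar GOM 1 lay under Bama pig ULB 2. Within each breed they did not overlap, with 2 against 2 libraries in wild boar and 2 against 1 in Bama pig. The share of all gene bodies separated in this way within the breeds was not computed. Wild boar GOM 1 had the widest spread of PC1 on all 3 chromosomes. Percentiles of all bins of the chromosome in the same library were a scale chosen after the data were seen. On this scale ERBB4 stood at 14.8 to 24.9 in GOM and 6.7 to 7.5 in ULB, without overlap (p = 0.0571, the smallest possible in the exact permutation test). The difference between the depot means in percentiles was 12.61 for ERBB4, −4.59 for NEGR1 and −6.1 for EDIL3. The share of all gene bodies without overlap in percentiles was not computed.

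**Figure D3:**
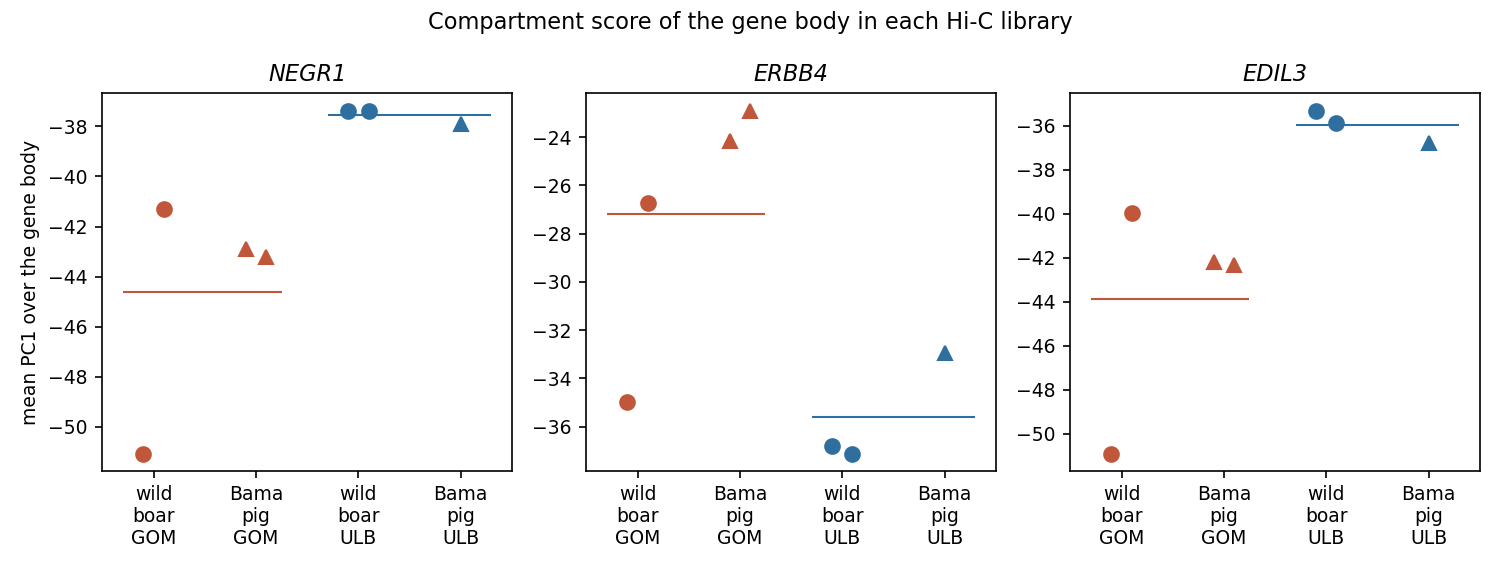
Mean PC1 over each gene body (vertical axis, no unit, more negative deeper in compartment B) in each Hi-C library, with symbols and colours by breed and depot as in the plot of TPM and lines for the means of each depot. NEGR1 and EDIL3 are lower in all 4 GOM libraries, ERBB4 is higher in GOM except for wild boar GOM 1 at −34.98, and vertical axes do not start at 0.

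The direction of the depot means held along the whole of each gene. The mean over GOM libraries was below that over ULB libraries in 44 of 44 bins of NEGR1 and 22 of 22 bins of EDIL3, and above it in 57 of 57 bins of ERBB4, although neighbouring bins are not independent. Every GOM library lay below every ULB library in 22 of 44 bins of NEGR1 and 14 of 22 bins of EDIL3, against 13.2% and 16.3% of all B bins of their chromosomes, and above in 14 of 57 bins of ERBB4, against 4.2%. In NEGR1 and EDIL3 the difference was even along the body, from −5.92 to −7.93 and from −7.36 to −8.78 between 3 equal parts of the gene. In ERBB4 it was largest at the 5′ end, at 12.67, against 7.51 in the middle and 5.14 at the 3′ end. The depots did not overlap in the part next to the start, and overlapped in the other parts. The share of all genes without overlap in such a part was not computed.

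In the bins that hold the start sites the depots did not overlap for the 3 genes. The share of start bins of all genes without overlap was not computed, so this is a description. For ERBB4, PC1 of the start bin was −15.55, −8.43, −6.60 and −6.44 in the GOM libraries and −29.21, −19.02 and −21.72 in the ULB libraries, a difference of 14.06 between the means. For EDIL3 it was −60.26, −39.14, −45.79 and −42.57 in GOM and −34.39, −29.61 and −35.43 in ULB, a difference of −13.80. For NEGR1 it was −43.87, −36.35, −41.30 and −37.51 in GOM and −29.60, −35.40 and −36.16 in ULB, a difference of −6.04, with wild boar GOM 2 just below Bama pig ULB 2. Each had p = 0.0571 in the exact permutation test, the smallest possible.

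Upstream of ERBB4, PC1 rose toward compartment A with distance from the start in both depots, and bins above 0 were found only in GOM. The highest bin of the 500 kb before the start was −3.70, −13.14 and −5.56 in wild boar ULB 1, wild boar ULB 2 and Bama pig ULB 2. It was −6.69 in wild boar GOM 1. In the 500 kb before the start, 2, 5 and 8 of 25 bins were positive in wild boar GOM 2, Bama pig GOM 1 and Bama pig GOM 2, against 0 in wild boar GOM 1 and in each ULB library. Mean PC1 of this flank was −8.94 in GOM and −18.95 in ULB, and the difference downstream of the gene was 2.56. The flanking differences were −4.93 upstream and −5.74 downstream of NEGR1, and −6.98 and −4.98 for EDIL3, so the lower GOM values extended past both genes.

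**Figure D4:**
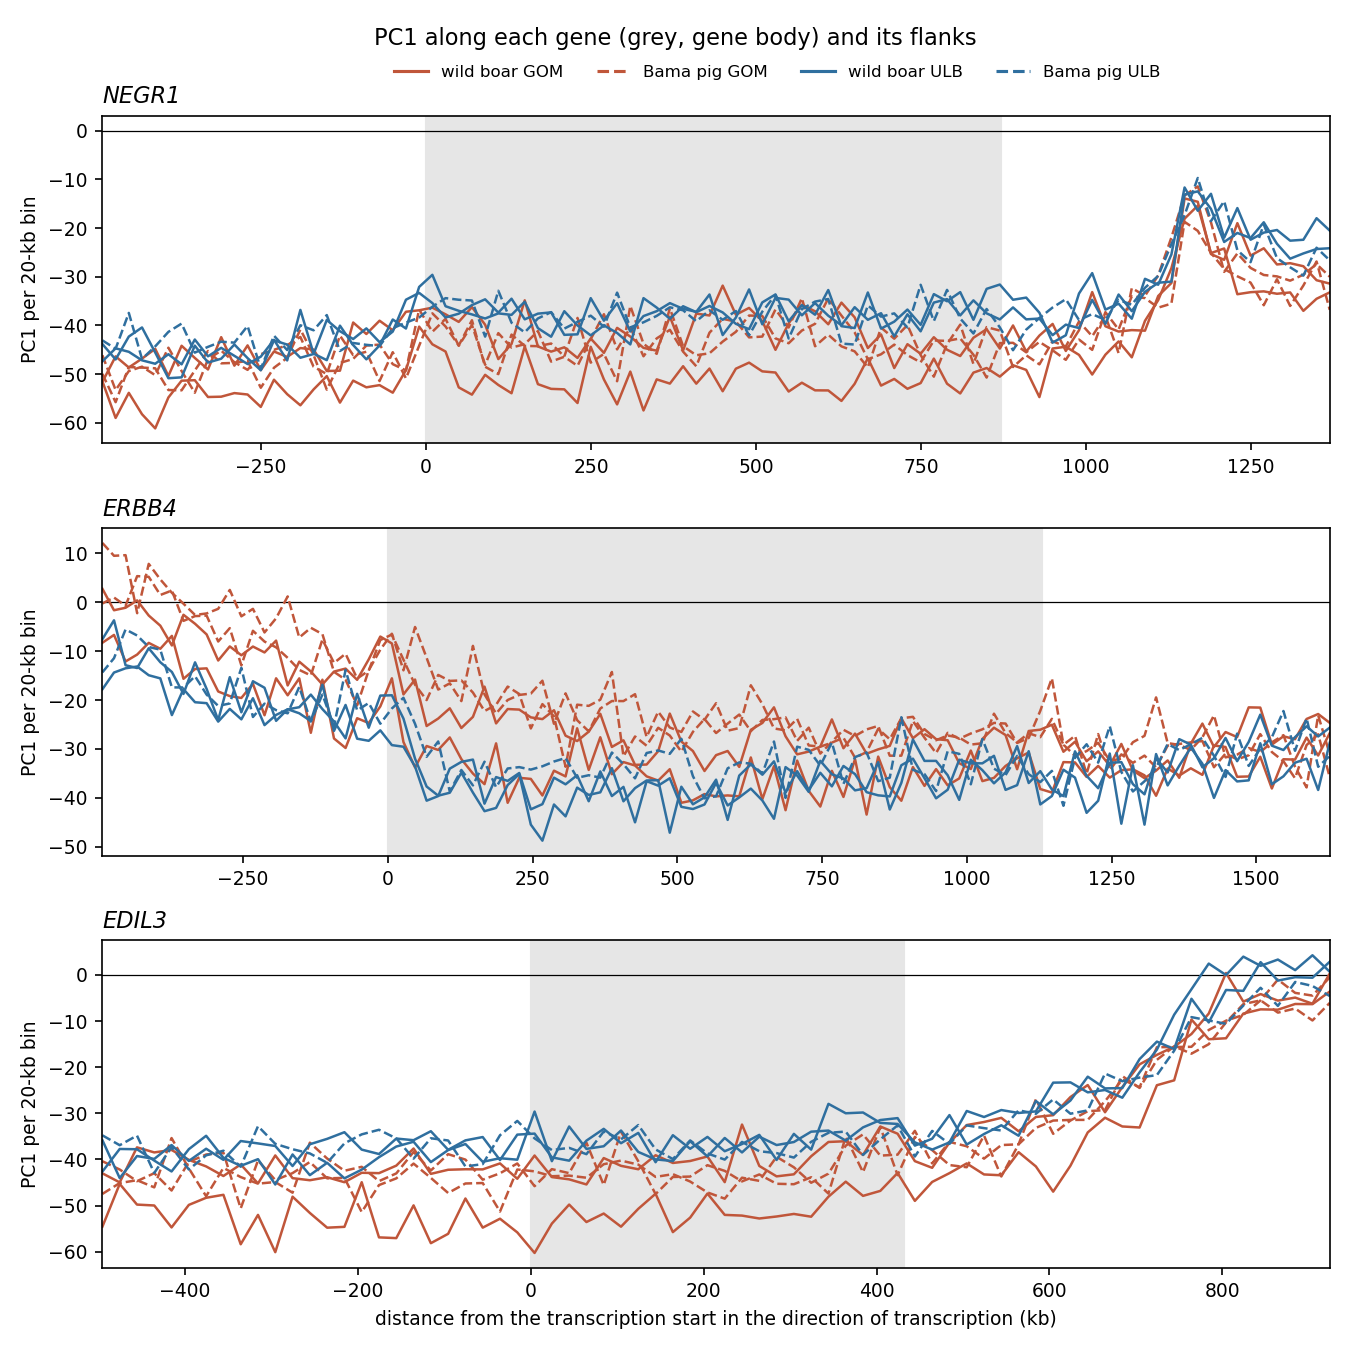
PC1 of each 20-kb bin (vertical axis, no unit) against the distance in kb from the transcription start in the direction of transcription, 1 line per Hi-C library, red for GOM, blue for ULB, solid for wild boar and dashed for Bama pig, with the gene body in grey. Over NEGR1 and EDIL3 the red lines lie lower on average but cross the blue ones in 22 of 44 and 8 of 22 bins. Upstream of ERBB4, wild boar GOM 1 crosses the blue lines and the other red lines run mostly above them, with a peak of 12.11 in Bama pig GOM 2.

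The B bins of these chromosomes were themselves shifted between depots, by less than the genes. The median GOM minus ULB difference of PC1 over all B bins was −1.10 on chromosome 6, −2.18 on chromosome 2 and −1.53 on chromosome 15, against −7.08, −7.87 and 8.42 over NEGR1, EDIL3 and ERBB4. Among B bins with a mean PC1 within 5 of that of the gene, every GOM library lay below every ULB library in 13.9% on chromosome 6, 15.3% on chromosome 2 and 14.2% on chromosome 15, and above in 9.9%, 1.7% and 3.2%. The direction of NEGR1 and EDIL3 was thus the more frequent one among such bins, and that of ERBB4 the less frequent.

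A breed difference of PC1 could not pass 0.05 in this design, in which 0.0571 is again the smallest p, and the test mixes depots within each breed. Wild boar minus Bama pig was −0.43 for NEGR1 (p = 0.971), −7.23 for ERBB4 (p = 0.114) and −0.08 for EDIL3 (p = 0.971) in exact permutation tests, two-sided, over 4 and 3 libraries, with adjusted p of 0.971, 0.343 and 0.971. Every wild boar library lay above every Bama pig library for 6.29% of gene bodies and below for 3.53%. For ERBB4, the Bama pig library was above both wild boar libraries in ULB and both were above both in GOM. The share of all gene bodies with such an order within the depots was not computed.

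The deposited TADs form 4 lists, each from the pooled replicates of a breed in a depot, so they carry no replicate error. NEGR1 lay within 1 TAD in both ULB lists, chr6:140760001-141880000 in wild boar and chr6:140780001-141880000 in Bama pig, the latter beginning within the bin of the NEGR1 start. In both GOM lists a boundary split the gene in intron 1, 169.6 kb from the start in wild boar and 189.6 kb in Bama pig, positions that match within 40 kb. The wild boar GOM list had a further boundary 779.6 kb from the start, in intron 6. The gene therefore fell into 3 TADs for wild boar GOM against 2 for Bama pig GOM.

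EDIL3 also lay within 1 TAD in both ULB lists, chr2:91900001-92980000 in wild boar and chr2:91900001-93340000 in Bama pig. Each GOM list placed 1 boundary inside it, 104.4 kb from the start in intron 1 in wild boar and 184.4 kb in intron 3 in Bama pig. These are 80 kb apart and were not matched within 40 kb. Neither had a counterpart in the ULB list of the same breed.

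ERBB4 was cut near its 3′ end in all 4 lists, between 1027.0 and 1087.0 kb from the start, in intron 20 or 25. The TAD over the rest of the gene began upstream at the same bin in all 4 lists, and covered 95.3% of the gene in Bama pig GOM, 93.5% in Bama pig ULB. A further boundary 447.0 kb from the start, in intron 2, was found for wild boar GOM alone and left parts of 38.7% and 53.1%. The depot with more ERBB4 mRNA thus shared its TAD layout with ULB in 1 breed and not in the other.

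Of 346 genes of at least 400 kb, 4.05% had more boundaries inside them in each GOM list than in each ULB list, as NEGR1 and EDIL3 did, and 2.89% had fewer. Of all wild boar GOM boundaries 20.0% had no match within 40 kb in wild boar ULB, and of Bama pig GOM boundaries 18.9% had none in Bama pig ULB, so an unmatched boundary by itself is frequent. The lists of Bama pig ULB were called with a replicate that is not analysed here.

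**Figure D5:**
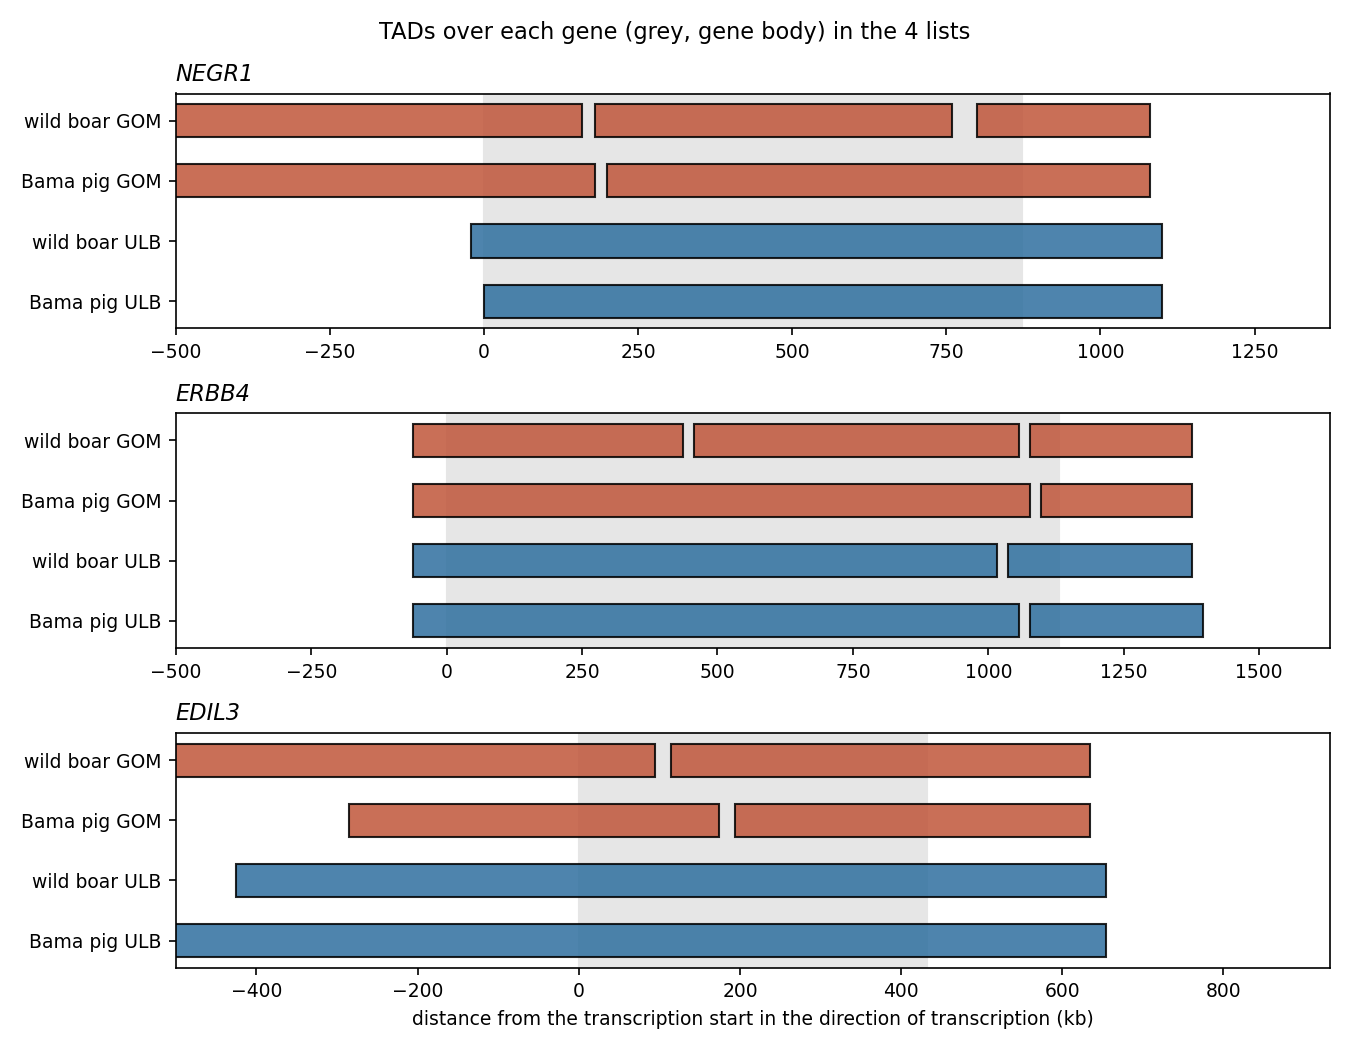
TADs (bars) of the 4 lists, red for GOM and blue for ULB, against the distance in kb from the transcription start in the direction of transcription, with the gene body in grey and bars cut at 500 kb from either end of the gene. Gaps between bars are boundaries: NEGR1 and EDIL3 are whole in both ULB lists and divided in both GOM lists, and ERBB4 is divided near its 3′ end in all 4.

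The 3 genes were set beside other long genes of compartment B. Of 197 genes of at least 400 kb with a negative body mean in every Hi-C library, 181 passed the expression filter, 178 of them besides the 3. Among these 178, 7 were called higher in GOM and 16, OPCML among them, lower, with a median log2 fold change of −0.36 against 0.02 over all genes. PC1 over the body was above ULB in every GOM library for 3 of the 7 (42.9%) and below for 0, and below ULB in every GOM library for 10 of the 16 (62.5%) and above for 0. Of the 155 genes not called, PC1 was above for 10.3% and below for 17.4%. More boundaries in each GOM list than in each ULB list, the layout of NEGR1 and EDIL3, was found in 1 of the 16, 0 of the 7 and 7 of the 155.

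The examples that follow were picked from the 23 called genes of this class after their values were seen. CTNNA2, a neuronal catenin, was at 1.44 TPM in GOM and 11.36 TPM in ULB (group means), CDH18, a cadherin, at 0.21 and 2.67 TPM, and SEMA3A, a guidance ligand, at 1.13 and 7.46 TPM, with PC1 lower in every GOM library for each, as for NEGR1 and EDIL3. ROBO2, a guidance receptor, and CADM2, an adhesion molecule, were called lower in GOM too, at 1.73 and 7.74 TPM and at 5.07 and 22.10 TPM, while their PC1 overlapped between depots and had a higher mean in GOM, by 2.95 and 0.75. Such an opposite direction of PC1 and mRNA was found in 4 of the 16 genes called lower and 0 of the 7 called higher. GRIP1, a scaffold protein, and MCTP1, a membrane calcium sensor, were higher in GOM with PC1 above ULB in every GOM library, by 12.65 and 8.05 between the means, while TRPM3, a cation channel with 13.07 TPM in GOM and 0.58 TPM in ULB, had overlapping PC1.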

How the data were processed

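RNA-seq and Hi-C values of 7 libraries each were analysed. Per the labels the RNA libraries were rRNA-depleted and stranded. The authors quantified genes with kallisto, for which the submitters' processing notes and the study's methods give different versions, and deposited estimated counts (expected counts, not normalized) and TPM. The ratio of count to TPM followed 1 fixed length per gene in every library, so these values carry no information on isoforms. TPM over the genes deposited summed to between 774260 and 956616, since these are a part of each library. The authors deposited a compartment score per 20-kb bin, computed from normalized contact maps. It is named an A-B index, but its mean was 0 on each chromosome, so it was read as PC1. The deposited TAD lists give start and end on Sscrofa11.1, called from merged replicates at 20-kb resolution.

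Genes were placed by symbol in RefSeq models of Sscrofa11.1 (13521 of 21280), whose 18 autosomes have the lengths found in the Hi-C values. Counts were rounded and tested with edgeR 4.0.16 in R 4.3.3 (quasi-likelihood F test, TMM, Benjamini-Hochberg over all genes, TPM above 0.1 in every library of at least 1 group). Breeds were compared in the 4 GOM libraries, or within a 4-group model of 7 libraries for ULB and the interaction. The depot fit had breed as a term. DESeq2 1.42.0 was an alternative. PC1 over a body was the mean of its bins weighted by overlap. TAD boundaries, the gaps of at most 400 kb between TADs, were matched within 40 kb. The fits and the permutation test were tested on simulated data. Named genes are the 3 genes, the 3 lists, neighbours within 1 Mb and the 5 most similar genes of each, with further long genes named after their values were seen. The 3 genes and all lists were chosen with earlier results of these data known. Replicates are separate animals of a breed. That the same number marks the same animal in both depots is assumed, since the labels do not state it. The result of 1 marker list is not reported here.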

Additional observations from a re-analysis of the deposited data

How the results depend on the processing

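For the 3 genes, the depot difference of expression kept its sign in all alternatives run, between −4.49 and −2.97 for NEGR1, 2.73 and 3.29 for ERBB4 and −3.41 and −2.45 for EDIL3 when 1 library was left out. On the scale of mean log2(TPM + 0.5) it was 2.08 for ERBB4 and −1.54 for EDIL3, a scale on which low levels are compressed by construction. The depot difference of PC1 kept its sign in all 45 alternatives, from −8.19 to −4.93, 6.99 to 11.02 and −9.16 to −5.52 without 1 library, and no p could fall below 0.05. Scaling by the chromosome SD, percentiles and single breeds were chosen after seeing the data.

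No breed or interaction estimate of the 3 genes passed in any alternative, and signs were not stable. In GOM, leaving out 1 library gave −3.40 to 0.76 for NEGR1, with 0.51 without wild boar GOM 1 and 0.76 without Bama pig GOM 2, −0.81 to 0.24 for ERBB4, with 0.24 without wild boar GOM 2, and −1.42 to 1.08 for EDIL3, with 1.08 without Bama pig GOM 1. In ULB the ranges were −0.33 to 0.58, −0.52 to 0.13 and 0.33 to 0.59, with −0.33 without wild boar ULB 1 for NEGR1 and 0.13 without wild boar ULB 2 for ERBB4. The ULB contrast and the interaction could not be made without Bama pig ULB 2. The interaction ranged from −3.54 to 0.56 for NEGR1 (0.34 without wild boar GOM 1, 0.56 without Bama pig GOM 2), −0.63 to 0.45 for ERBB4 (−0.63, −0.09 and −0.28 without wild boar GOM 1, Bama pig GOM 2 and wild boar ULB 2) and −1.89 to 0.63 for EDIL3 (0.63 without Bama pig GOM 1). For the breed difference of PC1, NEGR1 turned to 2.02 at the start bin, 0.03 in units of the chromosome SD, 0.96 as a percentile, 2.67 without wild boar GOM 1 and 1.29 without Bama pig ULB 2, and EDIL3 turned to 0.41, 0.02, 1.99, 3.39 and 1.75 in the same order and to 0.39 as the median of bins. These ranged from −1.90 to 2.67 and −1.81 to 3.39 without 1 library, and ERBB4 from −10.36 to −5.34. The TPM filter above 1 removed NEGR1 and EDIL3 from the GOM breed fit.

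Counts of genes called moved more. Breed in GOM gave 4 genes, 164 with DESeq2, 26 without a filter and 0 to 123 without 1 library. Breed in ULB gave 45, 418, 197 and 0 to 106. The interaction gave 0, 52, 7 and 0 to 1. Depot gave 640, 1399, 999 and 230 to 656, and 318 in wild boar alone. Single libraries decided much of this: depot gave 288, 362 and 230 without wild boar ULB 1, wild boar ULB 2 and Bama pig ULB 2, breed in GOM 123 and 84 without wild boar GOM 1 and 2 and 0 without either Bama pig GOM library, and breed in ULB 106 and 86 without Bama pig GOM 1 and 2 and 0 and 3 without wild boar ULB 1 and 2. The cause was not tested.

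With the replicate number as a block, 15 genes were called between breeds in GOM and 91 in ULB, and with the animal as a block 581 in the interaction, 793 between depots, and the EDIL3 interaction turned to 0.61. The blocked depot estimates were −3.47, 2.99 and −3.42, and those of PC1 −7.65, 7.41 and −8.42 (exact test over 3 pairs, smallest p = 0.25). The blocked interaction rests on a single Bama pig with both depots. Deviations of the same-numbered wild boar libraries correlated at 0.22 between depots in expression and 0.02 in PC1, and those of the breeds in GOM, whose numbers mark different animals, at 0.20 and −0.01.

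With boundaries matched within 20 kb, 2 instead of 1 of the wild boar GOM boundaries inside ERBB4 had no match in wild boar ULB. Matching within 80 kb changed no such count. Depth limits EDIL3 and NEGR1 in GOM, where some libraries hold fewer than 10 estimated counts.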
